A study of Homo sapiens with 26 samples.

Results

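RARA, CUEDC1, RAD51B, DLG5, GRIK4 and ZFP36 are genes whose loci hold top-ranked sites of the estrogen receptor (ER) or the progesterone receptor (PR) in breast cancer cells. The 6 loci were chosen by the scores of sites in these same lists, so that their leading sites stand high is how they were found and is given as a description, with no test. Every called site that overlapped a gene span plus 50 kb on each side was taken. This gave 396 of the 87206 sites of 10 lists. The lists hold sites called from sequenced DNA that was precipitated with each receptor (ChIP-seq). The cells were T47D, a human breast cancer cell line with ER and PR, and a PR-deficient form of it. Cells kept for 48 h in charcoal-stripped serum medium were treated for 45 min with vehicle alone, with estradiol (E2) at 10 nM, with the progestin R5020 at 10 nM, or with both at 10 nM (E2+R5020). T47D gave 3 ER lists, 3 PR lists and 1 list of a sequential precipitation of ER and then PR (reChIP, with E2+R5020), and PR-deficient cells gave 3 ER lists. The labels do not say how the PR-deficient cells were made or whether they are 1 clone. Since every group consisted of 1 library, replicate errors cannot be given and conditions could not be tested against each other. Vehicle libraries, and for the reChIP list also a control precipitation with IgG, had been subtracted by the authors, per the labels, so a place without a site is a place with no call after subtraction, which does not show that no receptor was there.

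ER and PR are the steroid hormone receptors studied here and belong to the nuclear receptors. Both bind DNA mostly once their hormone has bound them. ER prefers paired inverted arms of the estrogen response element and PR those of the progesterone response element, and both act mostly from sites away from gene starts. Such sites often lie in enhancers, inside genes or between them. RARA encodes retinoic acid receptor alpha, itself a nuclear receptor and a long-known estrogen-responsive gene of breast cancer cells. CUEDC1 encodes a protein with a CUE domain, a kind of domain that binds ubiquitin. RAD51B encodes a protein that takes part in the repair of broken DNA. DLG5 encodes a scaffold protein of the membrane-associated guanylate kinase family, with a part in cell polarity. GRIK4 encodes a subunit of the kainate class of glutamate receptors, known from neurons. ZFP36 encodes tristetraprolin, which binds AU-rich stretches of messenger RNAs and speeds their decay.

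Sequence under the sites was not read, because a genome of the build of the lists (hg19) was not used here. RefSeq promoters (GRCh38.p14) were matched for 4 of the 6 genes and gave 8 starts. No site of any list lay in the window from 250 bases before to 49 after the hg19 gene start of RARA, RAD51B, DLG5, GRIK4 or ZFP36. Both promoters below are shown because a reader would look for the receptors there, at the estrogen-responsive RARA and at ZFP36, whose leading site lies at the other end of a gene of 2593 bp. They hold the 250 bases before the start, 5′ to 3′ on the plus strand, with any match to a searched motif in capitals. The motifs, on both strands, were the estrogen response element GGTCANNNTGACC and a single arm AGGTCA, and the progesterone response element GNACANNNTGTNC and a single arm TGTTCT. Each single arm has a base beyond the arm spelled in its full element, so a full element need not count as a single arm.

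RARA, most upstream start, chr17:40308930-40309179 (GRCh38.p14): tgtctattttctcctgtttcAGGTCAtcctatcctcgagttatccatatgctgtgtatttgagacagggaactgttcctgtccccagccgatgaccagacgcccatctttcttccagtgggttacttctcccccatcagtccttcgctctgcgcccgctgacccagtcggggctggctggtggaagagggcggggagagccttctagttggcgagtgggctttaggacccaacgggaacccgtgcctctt

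ZFP36, chr19:39406597-39406846 (GRCh38.p14): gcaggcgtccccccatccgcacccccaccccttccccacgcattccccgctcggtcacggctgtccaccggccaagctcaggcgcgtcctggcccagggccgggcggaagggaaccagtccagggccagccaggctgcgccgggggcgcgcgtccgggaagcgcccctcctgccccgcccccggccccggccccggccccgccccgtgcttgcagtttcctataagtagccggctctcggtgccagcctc

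The RARA stretch held 1 AGGTCA, from base 21, and no other motif. None of the motifs was in the ZFP36 stretch, or in the other 6 matched starts of RARA, RAD51B and GRIK4. Among all 35116 RefSeq promoters cut in the same way, 12.1% held AGGTCA, 12.4% TGTTCT, 0.327% the full progesterone element and 0.0399% the full estrogen element. The other starts of RARA and GRIK4, which lie inside the gene, were not placed in hg19 and were not compared with the sites. Nor were the 2 starts of RAD51B, whose stretches overlap. They need not be the hg19 start that was searched for sites. A match is a description of letters, and an absence says that these letters were not in this window. Nearest to the RARA start in hg19 was a T47D ER site with E2 at chr17:38463010-38464529, 894 bp upstream. For GRIK4 it was a PR-deficient ER site with R5020 that ended 561 bp upstream. The start of CUEDC1 differed from the other 5 and carried sites, described below.

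The loci differed widely in their number of sites. GRIK4 held 208, DLG5 58, CUEDC1 52, RAD51B 46, RARA 23 and ZFP36 9. In hg19 the genes span chr17:38465423-38513895 (RARA), chr17:55938604-56032684 (CUEDC1), chr14:68286496-69062738 (RAD51B), chr10:79550549-79686378 (DLG5), chr11:120382465-120859613 (GRIK4) and chr19:39897453-39900045 (ZFP36). GRIK4 and RAD51B are long, at 477 and 776 kb, so counts were also taken per length. Per Mb of gene and flanks, GRIK4 held 360 sites, CUEDC1 268, DLG5 246, RARA 155, ZFP36 87.7 and RAD51B 52.5. The 10 lists together held 28.2 per Mb of the genome, counted to the highest site end on each chromosome. All 6 loci also lay above their own chromosomes, by 6.85-fold for DLG5, 6.40-fold for GRIK4, 5.83-fold for CUEDC1, 3.37-fold for RARA and 1.84-fold for ZFP36, and RAD51B least, with 52.5 per Mb against 35.0 on chromosome 14. Against the 1 Mb on each side the order changed: RAD51B held fewer sites per Mb than its surroundings (52.5 against 68) and CUEDC1 held 268 against 31.5. Loci picked for their sites must hold sites, so these densities are no finding in themselves.

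**Figure D1:**
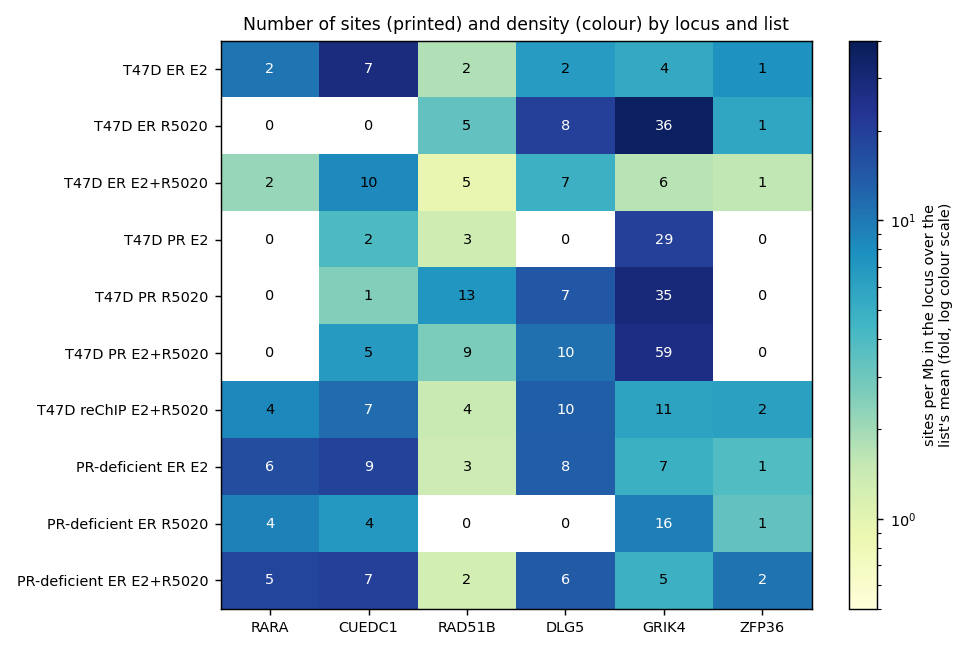
Number of called sites (printed) in each of the 6 loci (columns) and 10 lists (rows), coloured by sites per Mb over the mean of the list (log colour scale; white, no site). GRIK4 is darkest in T47D ER with R5020 (36 sites), while RARA and ZFP36 have no PR site.

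The kinds of list took different shares of the loci. GRIK4 held 123 PR sites, or 213 per Mb, DLG5 17 (72.1 per Mb), CUEDC1 8 (41.2 per Mb) and RAD51B 25 (28.5 per Mb), against 8.48 per Mb of the genome for the 3 PR lists together. RARA and ZFP36 held no PR site, in windows of 0.148 and 0.103 Mb that are too short for a count of 0 to stand apart from that rate. PR-deficient ER lists gave 15 of the 23 RARA sites and 20 of the 52 CUEDC1 sites, but 28 of the 208 GRIK4 sites. Over the genome they gave 7.29 of the 28.2 sites per Mb. In the 1 Mb on each side they gave 76 of 144 sites around RARA, 21 of 63 around CUEDC1 and 41 of 196 around GRIK4. RARA and CUEDC1 were also the loci led by PR-deficient ER sites, for which they were chosen. All 10 lists reached GRIK4, 9 reached CUEDC1 and RAD51B, 8 DLG5, 7 ZFP36 and 6 RARA. Of the 396 sites, 348 touched a gene span, the leading sites that chose the loci among them. The gene fills a different part of each window. At GRIK4 94.2% of sites touched a gene that fills 82.7% of the window, and at RAD51B 78.3% against 88.6%. The other shares were 87.9% against 57.6% at DLG5, 76.9% against 48.5% at CUEDC1, 87.0% against 32.6% at RARA and 55.6% against 2.53% at ZFP36. Exons and introns in hg19 were not analysed here, so sites are placed by distance from the gene start.

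**Figure D2:**
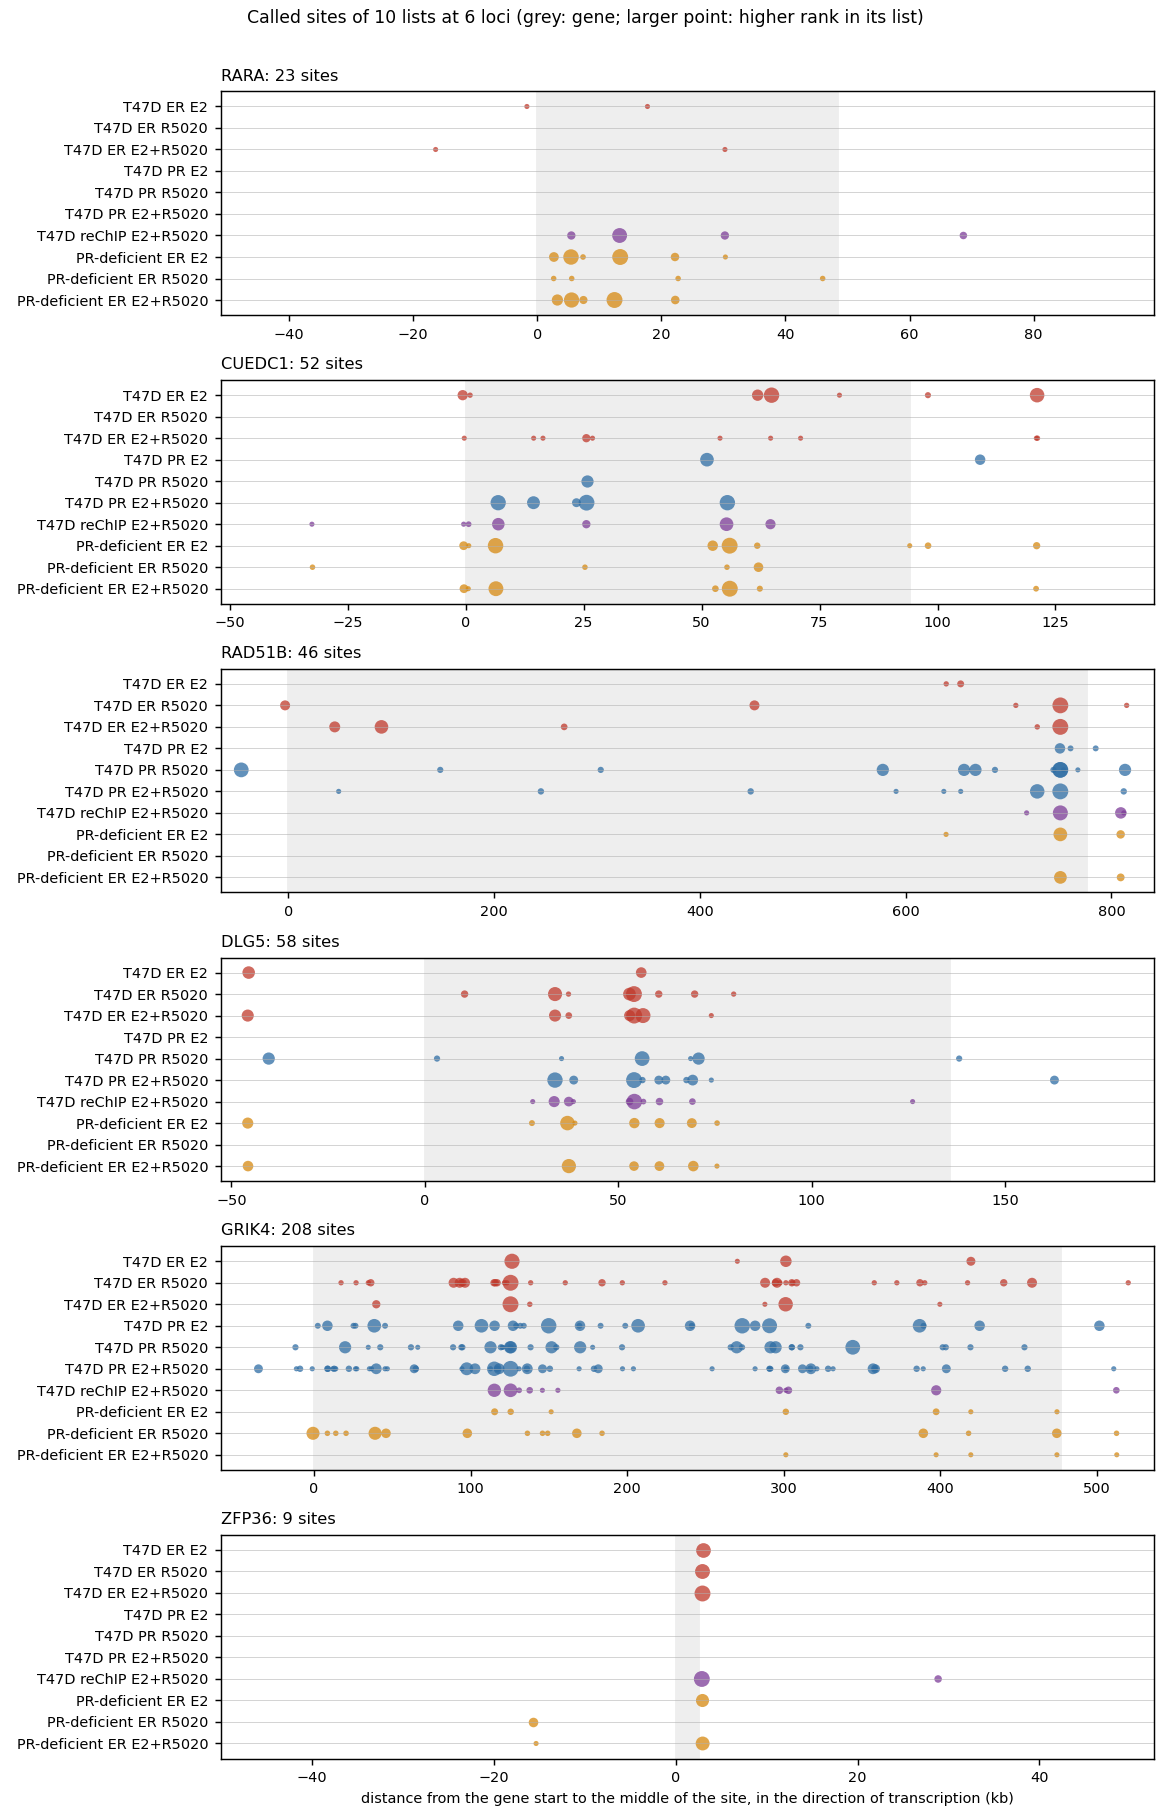
Position of each called site (points) along the 6 loci, in kb from the gene start in the direction of transcription, with 1 row for each list; grey marks the gene, and larger points rank higher in their list. Sites of several lists line up 13.0 kb into RARA, 56.0 kb into CUEDC1, 750 kb into RAD51B, 54.1 kb into DLG5, 126 kb into GRIK4 and at the end of ZFP36.

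Overlapping sites of the 10 lists were joined into places, and the place with the site of best standing in its own list is called the leading place of a locus. Standing is the share of the sites of a list that score higher, since the size of a score differs between lists. The rank by score within the list is given with each site. Sites of equal score share the best rank. Of the 396 sites, 19 had fewer than 1% of their list above them, against 1.18% of all sites, and 18 of those 19 lay at a leading place. This is what the loci were chosen for. Ranked by score per bp of length, the leading sites stood at 45 (CUEDC1), 291 (RARA), 1290 (GRIK4), 2009 (ZFP36), 4814 (DLG5) and 5403 (RAD51B). At the other end, 98 of the 396 (24.7%) stood at the lowest score of their list, close to the 22.1% of all sites.

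RARA was led by PR-deficient ER sites. With E2 the leading site, chr17:38477036-38480561, ranked 1 of 7742 with a score of 585.37, and with E2+R5020 the site at chr17:38476314-38479452 ranked 2 of 5663. The reChIP list of T47D held a site inside both, chr17:38478243-38479173, at rank 253 of 9861. No other list had a site there, so in T47D none of the ER or PR lists did. The nearest T47D ER site with E2 lay 1.52 kb away at rank 3580 of 4014, and that with E2+R5020 15.0 kb away at rank 13384 of 19220. T47D ER with R5020 and the 3 PR lists had no site within 100 kb of this place.

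A second place of high rank in RARA showed the same receptors. At chr17:38470362-38471554, 5.54 kb into the gene, PR-deficient ER ranked 91 with E2 and 97 with E2+R5020, and the reChIP site ranked 2380. With R5020 the PR-deficient site there ranked 4378, a rank shared by 4764 sites at the lowest score of that list. In all, 3 further places of RARA held PR-deficient ER sites of more than 1 hormone and no T47D site of any kind, at chr17:38467142-38470169, chr17:38471724-38473902 and chr17:38486272-38489073. Their best ranks were 728, 1420 and 1298, each with E2+R5020. The place where T47D ER (E2+R5020, rank 13384), reChIP (rank 2380) and PR-deficient ER (E2, rank 5435) met was chr17:38495279-38496220, 30.3 kb into the gene. Of the 11 places of the RARA locus, that was the 1 with 3 of the 4 kinds of list (T47D ER, T47D PR, reChIP and PR-deficient ER).

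CUEDC1 was also led by PR-deficient ER, but with PR beside it. The leading place, chr17:55975304-55978114, lay 56.0 kb into the gene, which is read from the minus strand. PR-deficient ER ranked 1 of 5663 there with E2+R5020 and 4 of 7742 with E2. With R5020 the PR-deficient site stood at the lowest score of its list, at rank 4378. In T47D, PR with E2+R5020 ranked 159 of 11908 and the reChIP site ranked 557 of 9861. The 3 T47D ER lists had no site at that place. With E2+R5020 the nearest T47D ER site was 574 bp away at rank 17387, and with E2 it was 3.11 kb away at rank 499.

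T47D ER with E2 stood high elsewhere in CUEDC1. Its best site, chr17:55966871-55968840, ranked 53 of 4014, and PR-deficient ER had none at that place. T47D ER with E2+R5020 (rank 17387) and reChIP (rank 1616) overlapped it. Downstream of the gene, at chr17:55911024-55912162, T47D ER with E2 ranked 138, while PR-deficient ER ranked 2312 with E2 and 2435 with E2+R5020. In this locus the best ER sites with E2 thus lay at different places in the lines. PR with E2+R5020 was best at chr17:56006651-56007471, where it ranked 43 of 11908. That place, 25.6 kb into the gene, held sites of all 4 kinds of list: PR with R5020 (rank 616), T47D ER with E2+R5020 (rank 4677), reChIP (rank 2380) and PR-deficient ER with R5020 (rank 4378). Near the gene start, 6.38 kb in, chr17:56025347-56027267 held PR-deficient ER at rank 88 with E2 and 147 with E2+R5020, PR with E2+R5020 at rank 182 and reChIP at rank 870.

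The start of CUEDC1 was the 1 start of the 6 with sites across its promoter window, 4 in number. They belonged to T47D ER with E2 (rank 646) and E2+R5020 (rank 17387) and to PR-deficient ER with E2 (rank 1709) and E2+R5020 (rank 1248). A reChIP site at rank 6072 completed this place, chr17:56032560-56034054. No PR list and no list of R5020 alone had a site there. A promoter sequence of CUEDC1 was not matched, so none is shown.

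RAD51B was led by a place near the end of the gene that 8 of the 10 lists held. It was chr14:69036279-69037512, 750 kb from the gene start in a gene of 776 kb. T47D ER ranked 10 of 19220 with E2+R5020 and 10 of 5338 with R5020. PR ranked 7 of 11908 with E2+R5020, 31 of 6358 with R5020 and 1220 of 7961 with E2, the last a rank shared by 2082 sites. By rank alone, the PR site with E2+R5020 stood best there. By share of the list above, it stood behind T47D ER with E2+R5020 (0.0504% against 0.0468%). The reChIP site ranked 222 of 9861. PR-deficient ER ranked 432 of 7742 with E2 and 468 of 5663 with E2+R5020. The lists that lacked the place were T47D ER with E2, whose nearest site was 95.9 kb away, and PR-deficient ER with R5020, whose nearest was 223 kb away. So R5020 alone gave a T47D ER site there at a high rank, and E2 alone gave none, while in PR-deficient cells E2 gave a site and R5020 gave none. With 1 library each, these are facts of the lists.

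PR with R5020 held 2 sites at that place, chr14:69036620-69036808 and chr14:69036820-69037038, next to each other. The PR site with E2, chr14:69036376-69036593, met neither of them. Of the 32 places of the locus, 26 (81.3%) were of 1 list, near the 80.4% of all places in the genome, and 11 of these were of PR with R5020. That list gave 13 of the 46 sites of the locus and 6358 of all 87206 sites. Its share of the 1-list places over the genome is not given here. A place at chr14:69014063-69014727 held PR with E2+R5020 at rank 418 and T47D ER with E2+R5020 at rank 9503. Past the gene end, chr14:69094723-69096199 held reChIP at rank 1175 and PR-deficient ER at ranks 1821 (E2) and 1506 (E2+R5020). Close by, chr14:69098212-69098736 held PR with E2+R5020 at rank 4321 and reChIP at rank 8297. T47D ER with E2, absent from the leading place, ranked 1286 at chr14:68939576-68940385, beside PR with E2+R5020 at rank 7412. The best-ranked site outside shared places was a PR site with R5020 before the gene, at chr14:68240784-68240923 (rank 181). Past the far end of the gene the next gene listed in RefSeq's GRCh38.p14 is ZFP36L1, a family member of ZFP36. All 6 places of RAD51B with 2 or more kinds of list lay in the last part of the gene or after it, from 639 to 812 kb from the start.

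DLG5 held a cluster of shared places. Its leading place, chr10:79631764-79632823, lay 54.1 kb into the gene, which is read from the minus strand, and 6 lists held it. T47D ER ranked 2 of 19220 with E2+R5020, a score shared by 2 sites, and 7 of 5338 with R5020. PR with E2+R5020 ranked 14 of 11908 and reChIP ranked 88 of 9861. PR-deficient ER ranked 1215 of 7742 with E2 and 1055 of 5663 with E2+R5020. Absent were T47D ER with E2, PR with E2, PR with R5020 and PR-deficient ER with R5020. The T47D ER site with E2 lay next to it, 280 bp away, at chr10:79629417-79631484 (rank 593), and PR with R5020 lay 1.46 kb away, at chr10:79630113-79630308 (rank 181). Joined within 500 bp, the leading place held 8 lists.

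The neighbouring place with that E2 site also held T47D ER with E2+R5020 (rank 439), PR with E2+R5020 (rank 4321) and reChIP (rank 4399), and no PR-deficient site. Farther into the gene, 69.3 kb from its start, a place at chr10:79616220-79617956 held 6 lists, among them T47D ER with R5020 (rank 1560), PR with E2+R5020 (rank 1696) and PR-deficient ER with E2+R5020 (rank 854). All 4 kinds of list also met at chr10:79625079-79626350, with reChIP at rank 2803 and PR-deficient ER at rank 1017 with E2+R5020. PR-deficient ER was best at chr10:79648553-79650467, at rank 264 with E2 and 237 with E2+R5020. That place lay 36.9 kb from the gene start. T47D ER ranked 2868 there with R5020 and 6521 with E2+R5020, and PR had no site. PR with E2+R5020 had its next best site at chr10:79652393-79653495 (rank 159), with T47D ER (rank 245 with R5020, 1944 with E2+R5020) and reChIP (rank 1303), and without PR-deficient ER. PR with E2 and PR-deficient ER with R5020 had no site in the locus. Upstream of the gene, chr10:79731136-79732645 held ER sites of E2 and E2+R5020 in both lines and neither a PR nor a reChIP site.

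GRIK4 combined a leading place with sites along the whole gene. The leading place, chr11:120507083-120510722, lay 126 kb into the gene and was held by 8 lists with 10 sites. T47D ER ranked 2 of 5338 with R5020, 11 of 19220 with E2+R5020 and 75 of 4014 with E2. PR with E2+R5020 ranked 49 of 11908, and PR with R5020 had 3 sites, of which the better 2 ranked 616 of 6358. The reChIP site ranked 557 of 9861. PR with E2 (rank 1220 of 7961) met the place through the wide T47D ER site of E2, which was 3640 bp long, and did not touch the leading site itself. PR-deficient ER ranked 2804 of 7742 with E2. It had no site there with R5020 or E2+R5020, the nearest being 7.83 and 173 kb away. Counted by overlap with the leading site itself, a setting chosen after seeing the data, 7 lists held it.

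A place 301 kb into GRIK4, chr11:120683128-120684506, was held by 7 lists. T47D ER ranked 480 with E2, 693 with E2+R5020 and 2868 with R5020. The better of 2 PR sites with E2+R5020 ranked 2562, reChIP ranked 8297, and PR-deficient ER 2804 with E2 and 3598 with E2+R5020. At 115 kb, chr11:120497030-120498347 held PR with E2+R5020 (rank 418), PR with E2 (rank 1220), reChIP (rank 644), T47D ER with R5020 (rank 1560) and PR-deficient ER with E2 (rank 2474). With the leading place, these were the 3 places of GRIK4 with all 4 kinds of list. T47D ER with E2 also had a site 420 kb into the gene, at chr11:120801346-120802616 (rank 850), with PR-deficient ER at rank 5058 with E2. PR with E2 had its best rank, 93 of 7961, at both chr11:120532168-120532490 and chr11:120655714-120656114. At the latter only PR with R5020 (rank 2428) overlapped it. Near the start, chr11:120390816-120391166 held PR with E2 (rank 1220), PR with E2+R5020 (rank 4321) and PR-deficient ER with R5020 (rank 4378).

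Of the 142 places of GRIK4, 105 (73.9%) had 1 list, against 80.4% of all places in the genome. Of these, 38 were of PR with E2+R5020, 20 of T47D ER with R5020, 19 of PR with R5020 and 17 of PR with E2. Density over the mean of the list was 36.2-fold for T47D ER with R5020, 29.5-fold for PR with R5020, 26.6-fold for PR with E2+R5020 and 19.5-fold for PR with E2. Density was lower in the other T47D lists, at 5.98-fold for reChIP, 5.34-fold for ER with E2 and 1.67-fold for ER with E2+R5020, the longest list. Against chromosome 11 in the same list it was 12.7-fold for T47D ER with R5020, 10.2-fold for PR with R5020 and 10.1-fold for PR with E2+R5020. PR-deficient ER stood at 9.38-fold over the mean of its list with R5020, 4.85-fold with E2 and 4.73-fold with E2+R5020, and over chromosome 11 at 3.52-fold, 3.14-fold and 2.85-fold. The T47D PR lists together held 213 sites per Mb in the locus, against 59 per Mb in the 1 Mb and 55.2 per Mb in the 5 Mb on each side. Chromosome 11 as a whole held 56.3 sites per Mb of all lists, and GRIK4 360. Of the 208 sites, 73 (35.1%) stood at the lowest score of their list. That share differs between whole lists, and within a list GRIK4 was mostly near it: 17 of 36 for T47D ER with R5020 (46.3% of the list), 26 of 59 for PR with E2+R5020 (37.8%), 13 of 29 for PR with E2 (58.5%) and 5 of 35 for PR with R5020 (13.1%). Without sites at the lowest score of their list, 135 remained. DNA copy number and input libraries were not analysed here, so their part in this density was not tested.

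ZFP36 had the fewest sites, in the shortest window, with 3 places, and 6 of its 9 sites lay at 1 of them. The leading place, chr19:39899852-39901093, crossed the end of the gene. T47D ER ranked 5 of 19220 with E2+R5020, 121 of 4014 with E2 and 133 of 5338 with R5020. The reChIP site ranked 15 of 9861, with a score of 736.19. PR-deficient ER ranked 562 of 7742 with E2 and 286 of 5663 with E2+R5020, and had no site there with R5020. No PR list had a site, and the nearest PR sites lay 115 kb away with R5020, 254 kb with E2+R5020 and 1114 kb with E2. The reChIP site was thus among the highest of its list at a place with ER sites of both lines and no PR site. In RefSeq's GRCh38.p14 the genes that follow the end of ZFP36 are MIR4530 and PLEKHG2. The other places were chr19:39881447-39882717, with PR-deficient ER at ranks 1716 (R5020) and 4810 (E2+R5020), and a single reChIP site at chr19:39926206-39926408 (rank 2803).

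**Figure D3:**
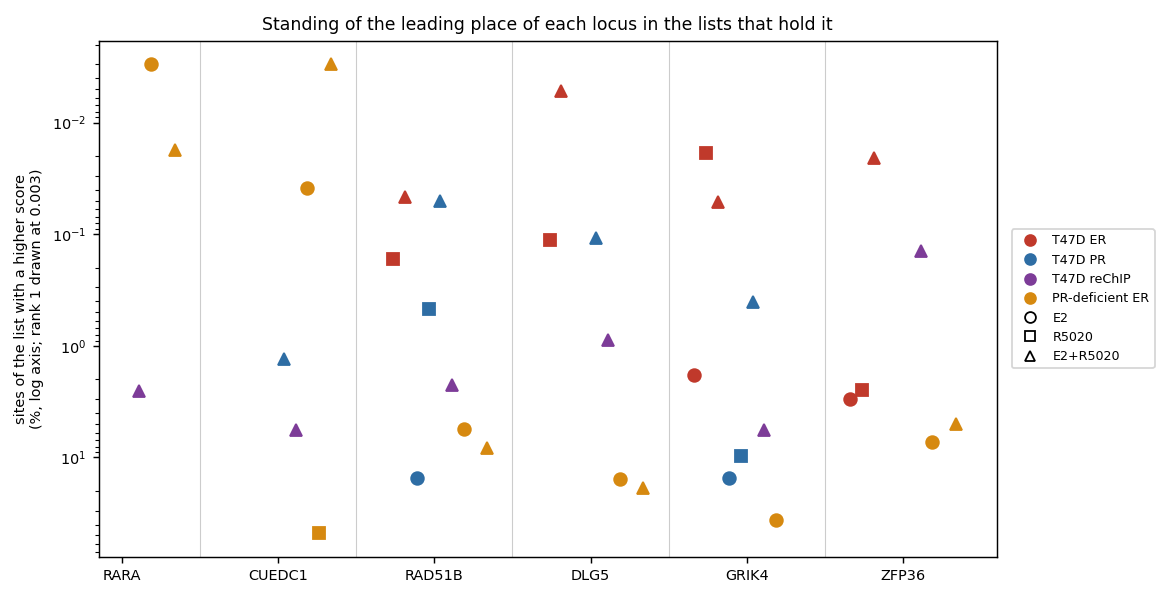
Share of each list's sites with a higher score than its site at the leading place of each locus (log axis, best standing at the top; colour, kind of list; shape, hormone). Points are missing where a list had no site. PR-deficient ER is at the top in RARA and CUEDC1, and T47D ER is at the top in RAD51B, DLG5, GRIK4 and ZFP36.

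Set side by side, the standing of the leading places in T47D and PR-deficient cells follows in part from the choice of loci. By share of the list above, RARA and CUEDC1 were led by PR-deficient ER and the other 4 by T47D ER. By rank alone, PR with E2+R5020 led RAD51B. The comparison is given as a description. With E2+R5020, T47D ER had 0.00520% of its list above it at DLG5, 0.0208% at ZFP36, 0.0468% at RAD51B and 0.0520% at GRIK4, and no site at RARA or CUEDC1. PR-deficient ER with E2+R5020 had none above it at CUEDC1 and 0.0177% at RARA, then 5.03% at ZFP36, 8.25% at RAD51B and 18.6% at DLG5, and no site at GRIK4. The reChIP list, made in T47D, held all 6 places, from 0.142% above at ZFP36 and 0.882% at DLG5 to 5.64% at both CUEDC1 and GRIK4. PR with E2+R5020 held 4 of the 6, from 0.0504% at RAD51B to 1.33% at CUEDC1. T47D ER with E2 held GRIK4 (1.84%) and ZFP36 (2.99%) and none of the other 4. PR-deficient ER with R5020 held 1 of the 6, CUEDC1, at the lowest score of its list. The labels give 1 vehicle library for each line and antibody, so lists of 1 kind were treated as sharing it, though how vehicle was subtracted is not stated.

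Widths at the leading places differed between lists, most at GRIK4, from 160 to 3640 bp. At RARA the PR-deficient sites were 3526 bp (E2) and 3139 bp (E2+R5020) long and the reChIP site was 931 bp. Widths differ between the whole lists too. The median was 1076.5 bp for PR-deficient ER with E2 and 1329 bp with E2+R5020. It was 276 bp for reChIP and 149 bp for PR with R5020. At DLG5 the 6 sites ran from 597 to 1043 bp and their middles lay within 97.5 bp of each other, the closest fit of the 6 loci. All lists present shared a common stretch at 4 loci: 931 bp at RARA (chr17:38478243-38479173), 395 bp at CUEDC1 (chr17:55977104-55977498), 552 bp at DLG5 (chr10:79631972-79632523) and 432 bp at ZFP36 (chr19:39900096-39900527). RAD51B and GRIK4 had none, since separate PR sites lay side by side there. At ZFP36 the shared stretch began past the gene end at 39900045.

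**Figure D4:**
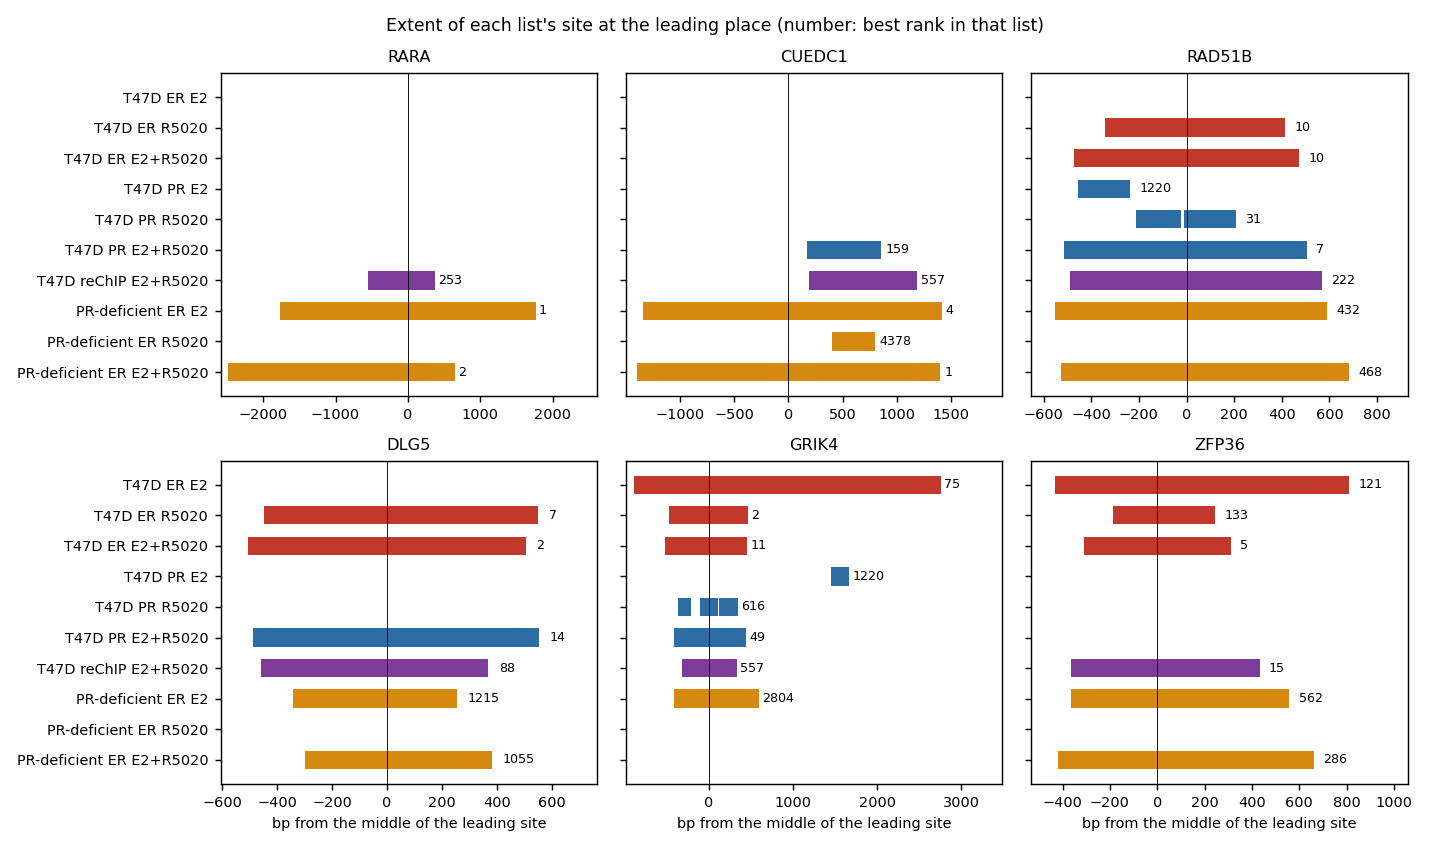
Extent of the site of each list (bars, bp from the middle of the leading site) at the leading place of each locus; the number is the best rank of that list there. DLG5 bars are nearly centred on each other, RARA and CUEDC1 bars of PR-deficient cells with E2 run 3526 and 2758 bp, and PR bars with R5020 are split at RAD51B and GRIK4.

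How often the sites of these loci met a list of another kind was counted next. For that reason overlap within a kind was not counted. In T47D ER, 15 of the 18 sites with E2 met another kind (65.9% of the whole list did), 23 of 50 with R5020 (38.5%) and 22 of 31 with E2+R5020 (18.4%). For PR it was 7 of 34 with E2 (15.1%), 18 of 56 with R5020 (16.4%) and 29 of 83 with E2+R5020 (25.4%). The reChIP list gave 32 of 38 (43.2%). PR-deficient ER gave 28 of 34 with E2 (49.3%), 12 of 25 with R5020 (20.3%) and 21 of 27 with E2+R5020 (50.5%). The sites that chose the loci are among these. Without the leading places, 168 of 357 sites (47.1%) met another kind, against 30.2% of all sites. The gap to the whole list was wide for T47D ER with E2+R5020 (18 of 27) and reChIP (26 of 32). It was also wide for PR-deficient ER with E2 (22 of 28), R5020 (11 of 24) and E2+R5020 (16 of 22). T47D ER with E2 gave 13 of 16. It was small for T47D ER with R5020 (19 of 46), PR with E2 (5 of 32) and PR with E2+R5020 (25 of 79), and PR with R5020 gave 13 of 51. A place held by several lists enters the count of each, so these counts are not independent, and none was tested. The loci are also denser in sites than the genome, and what part that has in the overlap was not tested.

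By place, 21 of the 230 places of the 6 loci (9.13%) held 3 or 4 kinds of list, against 2.85% of all 64490 places of the genome, and 8 (3.48%) held all 4, against 0.619%. GRIK4 gave 142 of the 230 places and 5 of the 21. DLG5 gave 7 of its 23 and CUEDC1 6 of its 19. RARA, RAD51B and ZFP36 gave 1 each. Leaving out the leading places, 16 of 224 places (7.14%) held 3 or 4 kinds and 5 (2.23%) all 4.

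Single pairs of lists were counted by locus, where the counts are small and were not tested against each other. The leading places, for which the loci were chosen, are in these counts, and the reChIP list held each of them. The shares of the whole lists beside them are therefore not a like comparison. Of the 18 T47D ER sites with E2, 11 met a PR-deficient ER site with E2 (54.9% of the whole list did): 5 of 7 at CUEDC1, 3 of 4 at GRIK4, 1 of 2 at RAD51B and at DLG5, the 1 at ZFP36 and 0 of 2 at RARA. In the other direction 11 of 34 PR-deficient sites met a T47D one (29% of the list), with 0 of 6 at RARA and 1 of 8 at DLG5. Of the 38 reChIP sites, 14 met T47D ER with E2+R5020 (19.5% of the list), 16 met PR with E2+R5020 (12.2%) and 20 met PR-deficient ER with E2 (15.6%). At RARA, 3 of its 4 reChIP sites met PR-deficient ER with E2, 1 met T47D ER with E2+R5020 and 0 met PR. At DLG5, 5 of 10 met T47D ER, 6 met PR and 6 met PR-deficient ER. Of the 31 T47D ER sites with E2+R5020, 11 met PR with E2+R5020 (5.16% of the list), 4 of 7 at DLG5, 3 of 6 at GRIK4, 2 of 5 at RAD51B, 2 of 10 at CUEDC1 and 0 at RARA and ZFP36. These loci were chosen for strong sites, and what part that has in the overlap was not tested.

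The 50 kb border cut through a few neighbourhoods. The farthest site taken from a gene was a PR site with R5020, 45.6 kb before RAD51B at rank 181. At DLG5 the farthest was a T47D ER site with E2+R5020, 45.5 kb away at rank 1944, and the nearest left out was a PR site with E2+R5020, 50.4 kb away at rank 7412. At CUEDC1 a T47D ER site with R5020 was left out at 51.3 kb (rank 2868). At ZFP36 the nearest left out was a PR site with R5020, 116 kb from the gene at rank 616. RARA was the 1 locus where 100 kb on each side changed the count by over 1.5 times, to 36 sites, and for ZFP36 the gene span alone held 5.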

How the data were processed

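The 26 samples formed 26 groups of 1 library, by their titles. Of these, 10 had a deposited list of sites and were used. The tools named per the submitters' processing notes are Bowtie2, an aligner, and MACS, a site caller, with the build hg19; versions and settings are not stated there. Each deposited list gives chromosome, start, end, length and a score for each site. The score is the authors' own value, of unstated unit, and rises in steps that differ between lists, so scores were used to rank sites within a list and not across lists. Read depth is not stated, and ranks of lists of different lengths show no change.

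The gene spans in hg19 came with the choice of loci. Members and lists were chosen with earlier results of these data known. Sites were joined into places where they overlapped by 1 bp or more. Named places followed a rule: the leading place, up to 4 further places with 2 or more lists (most lists first) and the best-ranked site elsewhere. Other places and sites in the text were picked after their values were seen. Gene strands came from RefSeq for 4 genes and from general knowledge for CUEDC1 and DLG5. Python 3.11.15, NumPy 2.4.6, pandas 2.3.3 and matplotlib 3.10.9 were used, and ranking and joining were tested on simulated data. No test between libraries was made.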

Additional observations from a re-analysis of the deposited data

Results flagged for a closer look

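ER lists with E2+R5020 held more sites than those with E2 in T47D, and fewer in PR-deficient cells, at 4 of the 6 loci. With 1 library in each group, the difference was not tested. At DLG5 T47D went from 2 to 7 sites and PR-deficient cells from 8 to 6, a gap of 7 between the changes. At CUEDC1 the counts were 7 to 10 and 9 to 7, a gap of 5. RAD51B went from 2 to 5 and from 3 to 2, a gap of 4, and GRIK4 from 4 to 6 and from 7 to 5, also a gap of 4. RARA stayed at 2 in T47D and went from 6 to 5, and ZFP36 stayed at 1 and went from 1 to 2. The whole lists moved the same way, from 4014 to 19220 sites in T47D and from 7742 to 5663 in PR-deficient cells. The T47D lists also differ in median site length, 1171 bp with E2 and 209 bp with E2+R5020. Over the mean of its list, T47D density fell from 27.8-fold to 8.30-fold at CUEDC1 and from 6.54-fold to 4.78-fold at DLG5. It fell from 5.34-fold to 1.67-fold at GRIK4 and from 1.76-fold to 0.919-fold at RAD51B. In PR-deficient cells it went from 18.5-fold to 19.7-fold, 13.6-fold to 13.9-fold, 4.85-fold to 4.73-fold and 1.37-fold to 1.25-fold in that order.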

How the results depend on the processing

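Of 90 values recomputed for 24 results, 76 differed from the reported one by 1.5 times or less. Ranking by score per bp of length, which favours narrow sites, moved the leading sites to rank 291 (RARA), 45 (CUEDC1), 5403 (RAD51B), 4814 (DLG5), 1290 (GRIK4) and 2009 (ZFP36). With 100 kb on each side RARA held 36 sites in 18 places. With the gene span alone ZFP36 held 5 sites in 1 place. With the lowest score raised by 1 step GRIK4 held 135 sites. When a shared site needed 50% overlap on each side, the leading place held 2 lists at CUEDC1 and 5 at GRIK4, and with middles within 200 bp it held 2 at CUEDC1. Leaving out chromosome Y and sites next to long stretches without sites, joining sites within 500 bp and giving ties their worst rank moved none of the results they were tried on by over 1.5 times. No paired analysis was possible because every group has a single library and the columns carry no replicate numbers. Depth is unknown, so an absent site is not shown to be an absent receptor.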
